A study of Mus musculus with 6 samples.

Results

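The genes described here encode the machinery that copies DNA in S phase: origin licensing factors, the replicative helicase and its activators, polymerases and primase, the sliding clamp and its loader, enzymes of nucleotide supply, chromatin assembly factors and G1/S regulators. They were chosen by name: a gene of the deposited count table is a member where its symbol equals 1 of 49 listed symbols. Of these, 48 were found among the 19288 genes of the table, and Cdt1 was not analysed here. All 48 passed the filter on low counts that 13632 genes passed. The table holds RNA-seq read counts of 6 subcutaneous tumours of LLC1, the Lewis lung carcinoma cell line, in hosts that all carried a beta-hCG transgene. Beta-hCG is a subunit of hCG, the pregnancy hormone that stimulates the gonads through the receptor it shares with luteinizing hormone.

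The 3 groups had 2 libraries each. Progesterone tumours came from ovariectomized transgenic mice supplemented with progesterone, vehicle tumours from ovariectomized transgenic mice supplemented with vehicle, and transgenic tumours from transgenic mice for which the labels name neither ovariectomy nor a supplement. Mice received the supplement for 28 days, and tumours were collected 30 days after the cells had been implanted. All hosts were crosses of C57BL/6 females (spelled CB57BL/6 in the labels) with transgenic FVB males, and all tumours grew from 1 cell line. The labels give neither the promoter of the transgene nor the age of the mice. Vehicle and transgenic tumours differ by ovariectomy and by supplementation together, so these cannot be told apart, whereas progesterone and vehicle tumours differ by the hormone. The labels do not say that each library came from a separate mouse, and p-values then measure only the spread between these libraries, which may be technical. Tumour cells and host cells are both of mouse, and the counts do not separate them.

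Before S phase, the origin recognition complex and Cdc6 load rings of Mcm2 to Mcm7 on origins. Cyclin E with its kinase partner, together with the kinase Dbf4-Cdc7, then helps to turn the rings into active helicases with Cdc45 and GINS, and E2F transcription factors, released when the retinoblastoma protein is phosphorylated, drive transcription of most of these genes at the G1/S boundary. Levels of these messages in a tumour are therefore widely read as a sign of how many cells are cycling. In a bulk sample, fewer cycling cells and less of these messages per cell cannot be told apart.

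A minority of the members hold the letters of E2F motifs in front of their starts, and the stretches below were picked from these to show how the letters sit in members with different values across the groups. Each is the 250 bases before the RefSeq transcription start (GRCm38.p6), written 5′ to 3′ in the direction of transcription. Capitals mark every match to 1 of 4 spellings of the E2F motif, TTTCCCGC, TTTGGCGC, TTTCGCGC and TTTGCCGC, on either strand, and a run longer than 8 capitals holds overlapping matches. The Mcm5 stretch is chr8:75109259-75109508 on the plus strand, that of Mcm6 is chr1:128359706-128359955 on the minus strand, that of Gins3 is chr8:95633309-95633558 on the plus strand and that of Pola1 is chrX:93632156-93632405 on the minus strand.
Mcm5: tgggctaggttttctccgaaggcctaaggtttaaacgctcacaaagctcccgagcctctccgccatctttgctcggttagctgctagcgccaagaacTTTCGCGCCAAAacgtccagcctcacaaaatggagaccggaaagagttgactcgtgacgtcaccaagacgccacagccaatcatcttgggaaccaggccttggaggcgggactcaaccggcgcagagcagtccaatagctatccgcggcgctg
Mcm6: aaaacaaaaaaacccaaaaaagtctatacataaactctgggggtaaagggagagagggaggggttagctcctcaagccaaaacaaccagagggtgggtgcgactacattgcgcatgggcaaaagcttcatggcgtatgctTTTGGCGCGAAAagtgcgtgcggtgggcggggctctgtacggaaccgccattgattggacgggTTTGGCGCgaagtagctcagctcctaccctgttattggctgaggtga
Gins3: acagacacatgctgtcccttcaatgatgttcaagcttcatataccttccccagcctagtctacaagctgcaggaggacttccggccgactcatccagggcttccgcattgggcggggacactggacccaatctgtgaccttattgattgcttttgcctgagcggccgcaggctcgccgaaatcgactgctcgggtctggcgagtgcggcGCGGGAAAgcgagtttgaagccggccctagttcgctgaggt
Pola1: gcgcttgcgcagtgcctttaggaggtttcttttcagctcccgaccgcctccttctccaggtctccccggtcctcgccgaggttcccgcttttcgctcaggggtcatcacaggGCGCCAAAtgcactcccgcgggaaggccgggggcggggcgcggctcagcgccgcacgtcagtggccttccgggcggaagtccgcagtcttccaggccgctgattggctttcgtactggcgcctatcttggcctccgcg
Mcm5 has 2 matches that overlap, Mcm6 has 3 of which 2 overlap, and Gins3 and Pola1 have 1 each.

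RefSeq promoter windows, here 250 bases before to 50 bases after the start, were at hand for 40 of the 48 members. E2F letters were found in 15 of these 40 windows (37.5%), against 4.44% of the 10556 tested genes with a window. Among 36 other replication genes with a window 15 had them (41.7%), and among 21 mitosis and G2 genes 1 had them (4.76%). The CHR, the element read as TTTGAA or TTCGAA on either strand that is known from G2/M promoters, was in 20% of the member windows, against 16.6% of the tested genes and 81% of the mitosis windows. The NF-Y box CCAAT was in 62.5% of the member windows, against 42.9% of the tested genes and 90.5% of the mitosis windows. A match is a description of letters and not of binding.

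**Figure D1:**
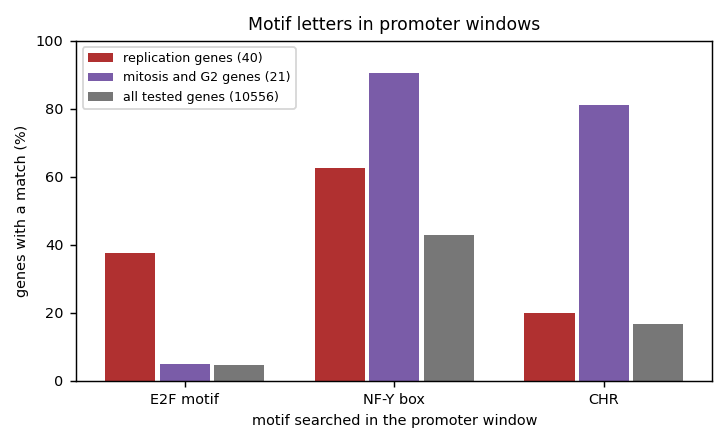
Share of genes (%, y axis) whose 300-base RefSeq promoter window holds the letters of each motif (x axis), for 40 replication genes, 21 mitosis and G2 genes and all 10556 tested genes with a window, with no error bars because each bar is 1 count. E2F letters stand in 37.5% of the replication windows, against 4.76% of the mitosis windows, and CHR letters show the other order with 20% and 81%.

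Library totals ran from 19526775 to 30083925 counts, both extremes being vehicle libraries, and a count of 3, the limit that a count of 0 allows, equals 0.0997 to 0.154 CPM, the unit of counts scaled to library size. These limits cover counting error only. The labelled line was checked against its markers: Vim, a marker of mesenchymal cells, had 4320 and 3783 CPM in the progesterone libraries, 4257 and 4532 CPM in those with vehicle, and 4223 and 3667 CPM in the transgenic ones, and host fibroblasts also express it. Krt8, an epithelial keratin gene, had 362 and 279.9 CPM in progesterone tumours, 180.4 and 209 CPM in vehicle tumours and 135 and 393 CPM in transgenic tumours, Krt18, its partner, had 268 and 294 CPM in progesterone tumours, 212 and 256 CPM in vehicle tumours and 125 and 370.1 CPM in transgenic tumours, and Epcam stayed below the filter. Krt8 and Krt18 were lowest in transgenic 1 and highest in transgenic 2. Krt19, another keratin gene of the list, ran the other way at a low level, with 3.22 CPM in transgenic 1 and 0.337 CPM in transgenic 2. The epithelial cadherin gene Cdh1 had 3.45 and 2.44 CPM in these libraries. The library labelled transgenic 2 stood apart: its rank correlation with transgenic 1 was 0.969 over all genes tested, while transgenic 1 and each vehicle library reached 0.985 and 0.987. The progesterone libraries reached 0.974 with each other, also below those values. The members shared a small shift between these libraries, with a median log2 ratio of transgenic 2 over transgenic 1 of 0.25 and 37 of 48 members higher. Their ratios had an SD of 0.27 and reached at most 0.78. Over all genes the median was 0.02 with an SD of 0.88, and 51.6% were higher. Medians and single members' values of vehicle minus transgenic are therefore also given without that library. Ranges within groups of genes, single values of genes other than the 48, and single values of progesterone minus transgenic use all 6 libraries.

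The 48 members took 0.354% and 0.382% of all counts with progesterone, 0.261% and 0.288% with vehicle, and 0.383% and 0.458% in transgenic tumours. The vehicle libraries had the lowest shares and did not overlap with the others. Library vehicle 1 was the lowest of the 6 for 39 members, vehicle 2 for 6 and progesterone 2 for 3, where the same libraries were lowest for 16.6%, 9.72% and 16.1% of all genes. Transgenic 2 was the highest for 36 members, transgenic 1 for 10 and progesterone 2 for 2, where these were highest for 23.1%, 14.2% and 17.3% of all genes, so that transgenic 2 was the most frequent highest library over all genes too. The mean over members of the log2 level relative to each gene's own average was 0.03 and 0.05 with progesterone, -0.37 and -0.24 with vehicle, and 0.15 and 0.38 in transgenic tumours. The pooled SD between libraries of 1 group of this mean was 0.110.

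**Figure D2:**
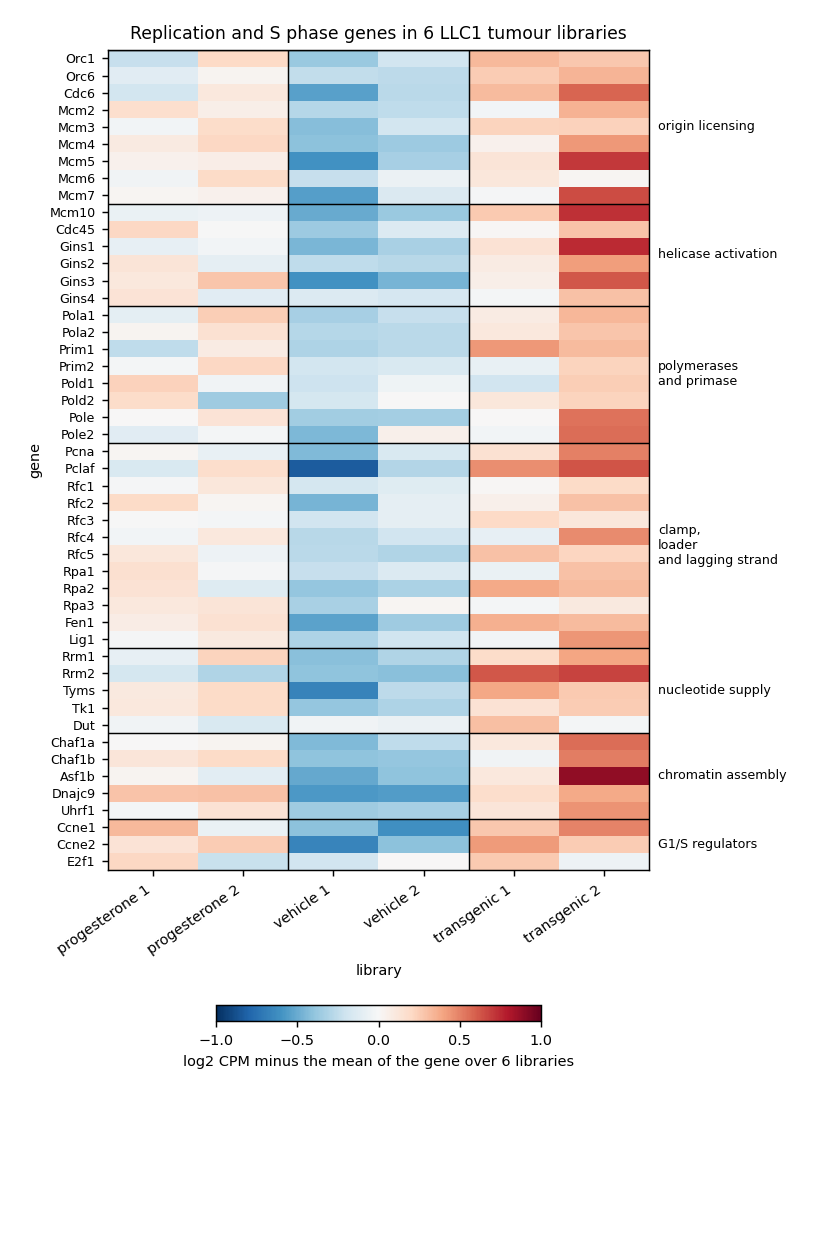
Log2 CPM of each of the 48 replication and S phase genes (rows, grouped by role) minus that gene's mean over the 6 libraries (columns), in colour from -1 to 1. The 2 vehicle columns are blue in nearly every row, and vehicle 1 is the lowest library for 39 genes and transgenic 2 the highest for 36.

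In vehicle against transgenic tumours, every one of the 48 members had a negative log2 fold change, against 51.5% of the 13632 genes tested. Their median was -0.56, with single values from -1.09 (Pclaf) to -0.16 (Pold1), and the median of all genes was -0.01. Both vehicle libraries lay below both transgenic libraries for 44 members, where 17.7% of all genes did, and the exceptions were Pold1, Pole2, Rpa3 and E2f1. The quasi-likelihood test of edgeR called 0 members and 0% of all genes at a Benjamini-Hochberg adjusted p under 0.05. At an unadjusted p under 0.05, 32 members were lower, against 2.89% of all genes. DESeq2 called 7 members (Mcm5, Mcm10, Pclaf, Fen1, Rrm2, Dnajc9 and Ccne2), against 0.462% of all genes, and limma-voom called 0 members and 0% of all genes. With no filter on low counts edgeR called 1 member, Rrm2, against 0.0622% of all genes. Without library transgenic 2 the median was -0.43 with 47 of 48 members lower, the exception being Pold1, and without transgenic 1 it was -0.69. Leaving out transgenic 2 moved the single value by over 1.5 times, or turned its sign, for 21 members, and leaving out vehicle 1 did so for 7. Fewer members passed an unadjusted p under 0.05 without vehicle 1 or without transgenic 2. The share of all genes at that cut in those fits is not given here.

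In progesterone against vehicle tumours, 47 of 48 members had a positive log2 fold change, against 51.1% of all genes, the exception being Dut. Their median was 0.36, with single values from -0.05 (Dut) to 0.85 (Dnajc9), and the median of all genes was 0.01. For 43 members both progesterone libraries lay above both vehicle libraries, where 18.5% of all genes did, and the exceptions were Orc1, Pold2, Pole2, Dut and E2f1. No member passed edgeR's adjusted test (0 members, 0% of all genes), and 14 were higher at an unadjusted p under 0.05, against 2.77% of all genes. DESeq2 called 1 member, Dnajc9, against 0.528% of all genes, and limma-voom called 0. Leaving out 1 library at a time gave medians of 0.27 (without vehicle 1) to 0.41 (without vehicle 2). This comparison and the one before it share the vehicle libraries, and each shares a group with the next one, so their values are not independent of each other. Without vehicle 1, without progesterone 2 or without vehicle 2, fewer members passed an unadjusted p under 0.05. The share of all genes at that cut in those fits is not given here. The single value moved by over 1.5 times, or turned its sign, for 21 members when 1 of the progesterone or vehicle libraries was left out, for 13 of them without progesterone 2, for 12 without vehicle 1, for 10 without progesterone 1 and for 8 without vehicle 2.

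In progesterone against transgenic tumours the median log2 fold change of the members was -0.20, with 43 of 48 lower, against a median of 0.01 and 49% lower over all genes. The 5 members with a positive value were Mcm6, Prim2, Pold1, Rpa3 and Dnajc9, and none exceeded 0.08. Both progesterone libraries lay below both transgenic libraries for 20 members, where 14.5% of all genes did, and above them for 1, Rpa3, where 14.5% of all genes did. edgeR called 0 members and 0% of all genes after adjustment, and 4 members (Mcm10, Prim1, Pclaf and Rrm2) were lower at an unadjusted p under 0.05, against 2.54% of all genes. DESeq2 called 1 member, Rrm2, against 0.337% of all genes, and limma-voom called 0. The median depended on library transgenic 2: without it the median was -0.07 with 30 of 48 members lower. The single value moved by over 1.5 times, or turned its sign, for 42 members when 1 of the progesterone or transgenic libraries was left out. Of these, 35 did so without transgenic 2, 32 without transgenic 1, 27 without progesterone 1 and 23 without progesterone 2. More members passed an unadjusted p under 0.05 without transgenic 1, and fewer without transgenic 2, without progesterone 1 and without either vehicle library. The share of all genes at that cut in those fits is not given here.

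**Figure D3:**
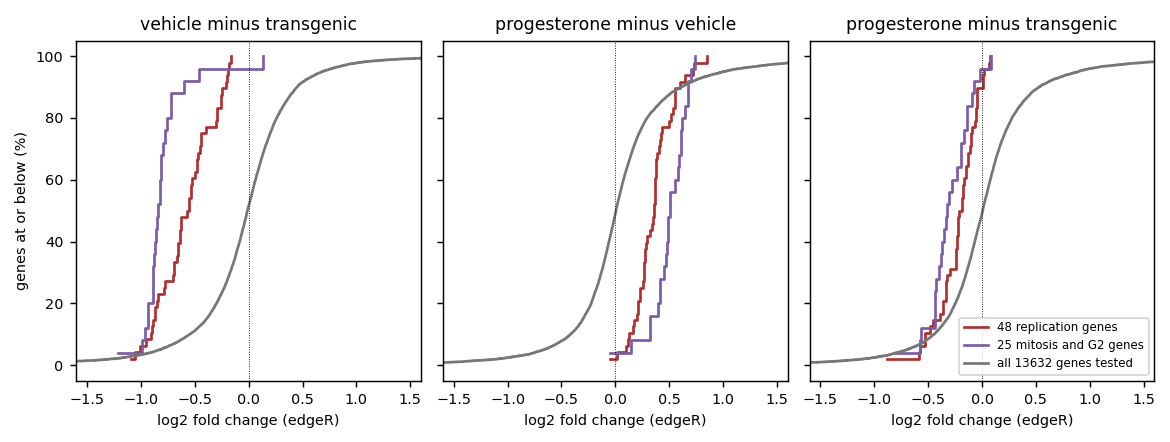
Cumulative share of genes (%, y axis) at or below each log2 fold change (x axis) in the 3 comparisons, for the 48 replication genes, the 25 mitosis and G2 genes and all 13632 genes tested. The replication curve lies left of the curve of all genes for vehicle minus transgenic (medians -0.56 and -0.01), right of it for progesterone minus vehicle (0.36 and 0.01) and slightly left of it for progesterone minus transgenic (-0.20 and 0.01).

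Setting the vehicle libraries against the average of the other 2 groups gave a median of -0.44 (-0.39 without transgenic 2), with all 48 members lower, against 51.4% of all genes. For 41 members both vehicle libraries lay below all 4 others, which 7.33% of all genes did. The exceptions were Orc1, Pold1, Pold2, Pole2, Rpa3, Dut and E2f1. With edgeR, 0 members and 0% of all genes were called, 32 members were lower at an unadjusted p under 0.05 against 2.8% of all genes, DESeq2 called 6 members (Pclaf, Fen1, Rrm2, Tk1, Dnajc9 and Ccne2) against 0.491% of all genes, and limma-voom called 0. The test of any difference among the 3 groups called 0 members with edgeR (0% of all genes), 24 at an unadjusted p under 0.05 (5.63% of all genes), 6 with DESeq2 (0.873% of all genes), 0 with limma-voom, and 2, Pclaf and Rrm2, with edgeR and no filter on low counts (0.726% of all genes). Leaving out vehicle 1 or vehicle 2 lowered the count of 32 members, and the share of all genes at that cut in those fits is not given here. The members with and without E2F letters in their promoter window had like medians: vehicle minus transgenic was -0.58 over the 15 with the letters and -0.55 over the 25 without (-0.47 and -0.45 without transgenic 2), and progesterone minus vehicle was 0.36 and 0.35. Progesterone minus transgenic was -0.18 and -0.22, and -0.03 and -0.15 without transgenic 2. The split rests on the 4 spellings searched, so a member with another spelling counts as without the letters.

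Levels below are TMM-scaled CPM per library, and log2 fold changes are edgeR's with their standard error (SE). Since no member passed edgeR's adjusted test, all are given as values. The origin licensing group had 9 of its 10 members in the table, and all 9 were lower in vehicle than in transgenic tumours by log2 fold change (median -0.58, and -0.51 without transgenic 2) and higher in progesterone than in vehicle tumours (median 0.37). Mcm5, a subunit of the ring that becomes the replicative helicase (chromosome 8, 75109569 to 75128439, plus strand, GRCm38), had 134 and 137 CPM in the progesterone libraries, 85.7 and 104 CPM in those with vehicle, and 142 and 214 CPM in the transgenic ones. The 3 groups of Mcm5 did not overlap, and transgenic 2 was far above the rest. The log2 fold change of Mcm5 was -0.91 ± 0.22 for vehicle minus transgenic (-0.59 without transgenic 2) and 0.52 ± 0.22 for progesterone minus vehicle. Cdc6, the loader that brings the Mcm ring to the origin, had 27.1 and 33.1 CPM in progesterone tumours, 21.1 and 25.6 CPM in vehicle tumours and 38.3 and 45.98 CPM in transgenic tumours. Its groups did not overlap either, with vehicle lowest and transgenic highest, and the vehicle minus transgenic value was -0.85 ± 0.22 (-0.72 without transgenic 2). Progesterone minus vehicle of Cdc6 was 0.37 ± 0.22, with 0.24 without vehicle 1 and 0.22 without progesterone 2.

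Mcm4, whose subunit is one of the catalytic ones in the ring, had 128 and 139 CPM in the progesterone libraries, 90.6 and 93.7 CPM in those with vehicle, and 124 and 162 CPM in the transgenic ones. Vehicle libraries were the lowest, while progesterone libraries lay within the range of the transgenic ones. This gene gave log2 fold changes of -0.63 ± 0.17 for vehicle minus transgenic (-0.42 without transgenic 2) and 0.53 ± 0.17 for progesterone minus vehicle. Mcm3, which pairs with Mcm5 in the ring, had 156 and 181 CPM in progesterone tumours, 118 and 139.8 CPM in vehicle tumours and 186 and 187 CPM in transgenic tumours. Both progesterone libraries lay between the vehicle and the transgenic ones. The vehicle minus transgenic value of Mcm3 was -0.53 ± 0.16 (-0.53 without transgenic 2) and the progesterone minus vehicle value 0.38 ± 0.16. Orc6, the smallest subunit of the origin recognition complex, had 58.3 and 64.1 CPM in the progesterone libraries, 53.04 and 52.6 CPM in those with vehicle, and 75.2 and 79.6 CPM in the transgenic ones. The vehicle libraries agreed closely and progesterone lay just above them, with -0.55 ± 0.15 for vehicle minus transgenic (-0.51 without transgenic 2) and 0.21 ± 0.15 for progesterone minus vehicle. Exons of Orc6 overlap those of Vps35 on the other strand.

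The other 4 licensing genes were Orc1, Mcm2, Mcm6 and Mcm7, with log2 fold changes of -0.69 to -0.21 for vehicle minus transgenic and 0.23 to 0.38 for progesterone minus vehicle. Of these Mcm6, singled out after its values were seen, stood closest to 0 in the ring, and its promoter stretch holds the most E2F letters of those shown. It had 209 and 245 CPM in the progesterone libraries, 182 and 205 CPM in those with vehicle, and 232 and 217 CPM in the transgenic ones. Its vehicle libraries were the lowest of the 6, with vehicle 2 just under progesterone 1. The vehicle minus transgenic value of Mcm6 was -0.21 ± 0.16 (-0.26 without transgenic 2) and progesterone minus transgenic was 0.02 ± 0.16, with a 95% interval of -0.37 to 0.40. Adjusted p-values of the 9 licensing genes in edgeR were at least 0.81 in vehicle minus transgenic and at least 0.932 in progesterone minus vehicle.

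The 6 helicase activation genes were all lower in vehicle than in transgenic tumours by log2 fold change (median -0.70, and -0.44 without transgenic 2), and all higher in progesterone than in vehicle tumours (median 0.34). Mcm10, which helps to start the loaded helicase, had 32.4 and 32.9 CPM in the progesterone libraries, 23.9 and 26.3 CPM in those with vehicle, and 40.7 and 56.3 CPM in the transgenic ones. The groups did not overlap and the progesterone libraries were nearly equal. Mcm10 gave -0.95 ± 0.22 for vehicle minus transgenic (-0.70 without transgenic 2), 0.38 ± 0.21 for progesterone minus vehicle and -0.57 ± 0.21 for progesterone minus transgenic. Gins1, a subunit of the 4-part GINS complex of the active helicase, had 22.02 and 22.9 CPM in progesterone tumours, 16.98 and 18.6 CPM in vehicle tumours and 25.8 and 39.2 CPM in transgenic tumours. Again the groups were separate, and transgenic 2 was well above transgenic 1. The fold changes of Gins1 were -0.87 ± 0.25 for vehicle minus transgenic (-0.54 without transgenic 2) and 0.34 ± 0.25 for progesterone minus vehicle.

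Gins3, another GINS subunit and one of the genes whose promoter stretch is printed above, had 17.1 and 19.3 CPM in the progesterone libraries, 10.5 and 11.6 CPM in those with vehicle, and 16.6 and 24.5 CPM in the transgenic ones. Both progesterone libraries lay within the transgenic range and both vehicle libraries below it. For Gins3 the vehicle minus transgenic value was -0.90 ± 0.27 (-0.59 without transgenic 2) and the progesterone minus vehicle value 0.73 ± 0.27. Cdc45, Gins2 and Gins4 had log2 fold changes of -0.53 to -0.30 for vehicle minus transgenic and 0.17 to 0.35 for progesterone minus vehicle. The smallest adjusted p-values of this group in edgeR were 0.81 and 0.939 in these 2 comparisons.

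Polymerases and primase had the lowest median of the 7 roles in progesterone minus vehicle. Their medians over 8 genes were -0.47 for vehicle minus transgenic (-0.27 without transgenic 2) and 0.25 for progesterone minus vehicle. Prim1, the catalytic subunit of primase that makes the RNA starters, had 35.9 and 45.5 CPM in the progesterone libraries, 34.6 and 35.5 CPM in those with vehicle, and 57.97 and 53.3 CPM in the transgenic ones. Transgenic libraries stood above the others, and progesterone 1 lay barely above the higher vehicle library. The vehicle minus transgenic value was -0.67 ± 0.19 (-0.73 without transgenic 2), that of progesterone minus vehicle 0.21 ± 0.19 and that of progesterone minus transgenic -0.45 ± 0.19. Progesterone minus vehicle of Prim1 was 0.03 without progesterone 2 and 0.38 without progesterone 1. Pola2, the second subunit of polymerase alpha, had 104 and 113 CPM in progesterone tumours, 83.7 and 84.5 CPM in vehicle tumours and 109.5 and 124 CPM in transgenic tumours. The vehicle libraries were nearly equal and below all 4 others, and progesterone and transgenic overlapped. Pola2 gave -0.47 ± 0.15 for vehicle minus transgenic (-0.38 without transgenic 2) and 0.37 ± 0.15 for progesterone minus vehicle.

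Pole, the catalytic subunit of the leading strand polymerase epsilon, had 50.6 and 55.6 CPM in the progesterone libraries, 39.7 and 39.8 CPM in those with vehicle, and 50.5 and 73.3 CPM in the transgenic ones. Vehicle libraries were nearly equal, and progesterone libraries fell inside the wide transgenic range. Its log2 fold changes were -0.64 ± 0.21 for vehicle minus transgenic (-0.35 without transgenic 2) and 0.42 ± 0.21 for progesterone minus vehicle. Pola1, the catalytic subunit of polymerase alpha, had 52.8 and 66.98 CPM in progesterone tumours, 44.97 and 48.2 CPM in vehicle tumours and 60.05 and 71.4 CPM in transgenic tumours. Progesterone and transgenic libraries overlapped and vehicle was below both, with -0.50 ± 0.19 for vehicle minus transgenic (-0.37 without transgenic 2) and 0.36 ± 0.19 for progesterone minus vehicle (0.18 without progesterone 2). Prim2, Pold1, Pold2 and Pole2 had values of -0.48 to -0.16 for vehicle minus transgenic and 0.02 to 0.27 for progesterone minus vehicle. Pold1 and Pold2, subunits of the lagging strand polymerase delta, were both at -0.25 or closer to 0 in vehicle minus transgenic. In edgeR the smallest adjusted p of the 8 genes was 0.81 in vehicle minus transgenic and 0.939 in progesterone minus vehicle.

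Among the 12 genes of the sliding clamp, its loader, the single-strand binding protein RPA and lagging strand maturation, all were lower in vehicle than in transgenic tumours by log2 fold change (median -0.47, and -0.33 without transgenic 2) and all higher in progesterone than in vehicle tumours (median 0.29). Pclaf, a small protein that binds the clamp PCNA, had the most negative vehicle minus transgenic value of all 48 members. It had 71.8 and 89.8 CPM in the progesterone libraries, 44.7 and 65.1 CPM in those with vehicle, and 109.9 and 123 CPM in the transgenic ones. The groups did not overlap, although vehicle 1 was well below vehicle 2. Its log2 fold changes were -1.09 ± 0.22 for vehicle minus transgenic (-1.0 without transgenic 2), 0.56 ± 0.22 for progesterone minus vehicle and -0.53 ± 0.22 for progesterone minus transgenic. Progesterone minus vehicle of Pclaf was 0.31 without vehicle 1 and 0.85 without vehicle 2. Fen1, the nuclease that trims flaps between Okazaki fragments (chromosome 19, 10199132 to 10204169, minus strand, GRCm38), had 67.2 and 71.1 CPM in progesterone tumours, 44.1 and 50.03 CPM in vehicle tumours and 81.6 and 79.6 CPM in transgenic tumours. All 3 groups were separate and replicates were close. Fen1 gave -0.78 ± 0.15 for vehicle minus transgenic (-0.79 without transgenic 2) and 0.56 ± 0.15 for progesterone minus vehicle, with a 95% interval for progesterone minus vehicle of 0.20 to 0.91. Exons of Fen1 overlap those of Tmem258 on the other strand.

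Pcna, the clamp itself, had 194 and 182 CPM in the progesterone libraries, 141 and 172 CPM in those with vehicle, and 212 and 272 CPM in the transgenic ones. Progesterone libraries lay above the vehicle and below the transgenic ones, with no overlap. Its values were -0.63 ± 0.19 for vehicle minus transgenic (-0.44 without transgenic 2) and 0.26 ± 0.19 for progesterone minus vehicle. The progesterone minus vehicle value of Pcna was 0.12 without vehicle 1 and 0.41 without vehicle 2, and the pseudogenes Pcna-ps1 and Pcna-ps2 may share its reads. Rpa2, the RPA subunit that is phosphorylated on replication stress, had 42.7 and 35.3 CPM in progesterone tumours, 29.5 and 31.1 CPM in vehicle tumours and 50.3 and 48.3 CPM in transgenic tumours. Its groups were separate, and it gave -0.70 ± 0.18 for vehicle minus transgenic (-0.73 without transgenic 2) and 0.36 ± 0.18 for progesterone minus vehicle (0.23 without progesterone 1). Rfc5, a small subunit of the clamp loader RFC, had 36.7 and 32.9 CPM in the progesterone libraries, 28.2 and 27.7 CPM in those with vehicle, and 41.7 and 39.4 CPM in the transgenic ones. The groups did not overlap. Rfc5 gave -0.54 ± 0.18 for vehicle minus transgenic (-0.58 without transgenic 2) and 0.32 ± 0.18 for progesterone minus vehicle.

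Lig1, the ligase that seals Okazaki fragments, had 98.8 and 107 CPM in progesterone tumours, 80.3 and 86.9 CPM in vehicle tumours and 97.9 and 135 CPM in transgenic tumours. Progesterone libraries lay inside the transgenic range, of which transgenic 2 made the upper end. For Lig1 the vehicle minus transgenic value was -0.48 ± 0.19 (-0.23 without transgenic 2) and progesterone minus vehicle 0.30 ± 0.19. The other 6 genes of the group were Rfc1, Rfc2, Rfc3, Rfc4, Rpa1 and Rpa3, at -0.45 to -0.19 for vehicle minus transgenic and 0.13 to 0.38 for progesterone minus vehicle. Rpa3, singled out after its values were seen, was the member whose progesterone libraries both lay above both transgenic libraries, with 37.98 and 38.4 CPM in the progesterone libraries, 28.1 and 35.7 CPM in those with vehicle, and 34.8 and 37.6 CPM in the transgenic ones. The progesterone libraries barely exceeded the higher transgenic library, and progesterone minus transgenic was 0.08 ± 0.20. The smallest adjusted p of the 12 genes in edgeR was 0.81 in vehicle minus transgenic and 0.932 in progesterone minus vehicle.

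Of the 5 genes of nucleotide supply, all were lower in vehicle than in transgenic tumours by log2 fold change (median -0.65, and -0.54 without transgenic 2), and 4 were higher in progesterone than in vehicle tumours (median of the 5, 0.44). Rrm2, the S phase subunit of ribonucleotide reductase, which makes deoxynucleotides (chromosome 12, 24708241 to 24714146, plus strand, GRCm38), had 90.6 and 83.3 CPM in the progesterone libraries, 77.7 and 76.5 CPM in those with vehicle, and 157 and 164 CPM in the transgenic ones. The progesterone libraries stood close to the vehicle libraries and far below the transgenic ones, with tight replicates in every group. The log2 fold change of Rrm2 was -1.06 ± 0.14 for vehicle minus transgenic (-1.03 without transgenic 2), 0.17 ± 0.14 for progesterone minus vehicle and -0.88 ± 0.14 for progesterone minus transgenic. Its adjusted p in edgeR was 0.587, 0.999 and 0.827 in these comparisons, the first being the smallest of any member. DESeq2 called Rrm2 in vehicle minus transgenic at an adjusted p of 1.11e-08 and in progesterone minus transgenic at 8.47e-06, and over 14 alternatives to the edgeR test the adjusted p in vehicle minus transgenic ran from that DESeq2 value to 0.9999. Its vehicle minus transgenic value itself stayed between -1.11 and -1.03 under the 14 alternatives. The 95% interval of progesterone minus transgenic was -1.21 to -0.55, and that of progesterone minus vehicle was -0.15 to 0.50.

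Rrm1, the large subunit of the same enzyme, had 127 and 156 CPM in progesterone tumours, 100.4 and 109 CPM in vehicle tumours and 152 and 177 CPM in transgenic tumours. Here progesterone and transgenic libraries overlapped and vehicle was lowest, at -0.65 ± 0.17 for vehicle minus transgenic (-0.54 without transgenic 2) and 0.44 ± 0.17 for progesterone minus vehicle (0.28 without progesterone 2). The per-length ratio of Rrm2 to Rrm1, chosen after the values were seen, was 2.83 and 2.12 with progesterone, 3.07 and 2.80 with vehicle, and 4.10 and 3.68 in transgenic tumours. The transgenic ratios were thus the highest, and the progesterone and vehicle ratios overlapped. Tk1, the thymidine salvage kinase of S phase, had 92.4 and 98.4 CPM in the progesterone libraries, 65.7 and 69.3 CPM in those with vehicle, and 95.3 and 103 CPM in the transgenic ones. Vehicle libraries lay below the 4 others, which overlapped. Tk1 gave -0.55 ± 0.14 for vehicle minus transgenic (-0.50 without transgenic 2), 0.50 ± 0.14 for progesterone minus vehicle and -0.05 ± 0.14 for progesterone minus transgenic. Tyms, which makes thymidylate and has the pseudogene Tyms-ps, and Dut, which clears dUTP, had vehicle minus transgenic values of -0.78 and -0.20 (-0.84 and -0.34 without transgenic 2). Dut, singled out after its values were seen, had 100.5 and 92.7 CPM in progesterone tumours, 101 and 98.95 CPM in vehicle tumours and 127 and 102 CPM in transgenic tumours. Progesterone and vehicle libraries of Dut overlapped, and progesterone minus vehicle was -0.05 ± 0.16, with 0.01 without progesterone 2.

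The chromatin assembly genes, which package and mark new DNA, had 5 of 5 members lower in vehicle than in transgenic tumours by log2 fold change (median -0.69, and -0.47 without transgenic 2) and 5 higher in progesterone than in vehicle tumours (median 0.42). Dnajc9, a histone co-chaperone for H3 and H4 (chromosome 14, 20384638 to 20388910, minus strand, GRCm38), had 50.03 and 50.1 CPM in the progesterone libraries, 27.6 and 27.9 CPM in those with vehicle, and 46.3 and 53.4 CPM in the transgenic ones. Vehicle libraries were nearly equal and lay far below the other groups, and the progesterone libraries fell inside the transgenic range. The values of Dnajc9 were -0.84 ± 0.17 for vehicle minus transgenic (-0.74 without transgenic 2), 0.85 ± 0.17 for progesterone minus vehicle and 0.01 ± 0.17 for progesterone minus transgenic, the last with a 95% interval of -0.39 to 0.41. Its progesterone minus vehicle value was the highest of all members, with an adjusted p in edgeR of 0.826. DESeq2 gave 0.00242 there, the lowest of 14 alternatives, which reached 0.9997.

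Asf1b, a histone H3-H4 chaperone of proliferating cells, had 36.7 and 33.5 CPM in progesterone tumours, 25.2 and 27.2 CPM in vehicle tumours and 38.8 and 66.7 CPM in transgenic tumours. The groups were separate, but transgenic 2 alone was far above the rest. Its log2 fold changes were -1.01 ± 0.27 for vehicle minus transgenic (-0.57 without transgenic 2) and 0.42 ± 0.27 for progesterone minus vehicle. Uhrf1, which brings the maintenance DNA methyltransferase to new DNA, had 154 and 173 CPM in the progesterone libraries, 123 and 124 CPM in those with vehicle, and 171 and 214 CPM in the transgenic ones. Vehicle libraries were nearly equal and lowest, and the other groups overlapped. Uhrf1 gave -0.64 ± 0.17 for vehicle minus transgenic (-0.47 without transgenic 2) and 0.41 ± 0.17 for progesterone minus vehicle. Chaf1a and Chaf1b, subunits of the histone loader CAF-1, had -0.69 ± 0.19 and -0.66 ± 0.25 for vehicle minus transgenic (-0.45 and -0.36 without transgenic 2) and 0.36 ± 0.19 and 0.55 ± 0.25 for progesterone minus vehicle.

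Of the 3 G1/S regulators, Ccne2 and Ccne1 encode cyclins E2 and E1, which switch on the kinase Cdk2 at the start of S phase. Ccne2 had 26 and 28.09 CPM in the progesterone libraries, 14.96 and 17.8 CPM in those with vehicle, and 31.7 and 28.15 CPM in the transgenic ones. Vehicle libraries were clearly the lowest, and the higher progesterone library was just below the lower transgenic library. The values of Ccne2 were -0.87 ± 0.21 for vehicle minus transgenic (-0.96 without transgenic 2) and 0.73 ± 0.21 for progesterone minus vehicle, and its exons overlap those of Ints8 on the other strand. Ccne1 had 22.6 and 17.2 CPM in progesterone tumours, 13.6 and 11.8 CPM in vehicle tumours and 21.8 and 25.4 CPM in transgenic tumours. Vehicle was again the lowest group, and the 2 others overlapped. Ccne1 gave -0.89 ± 0.25 for vehicle minus transgenic (-0.78 without transgenic 2) and 0.65 ± 0.25 for progesterone minus vehicle. E2f1, an activating E2F factor and singled out after its values were seen, had 64.4 and 47.7 CPM in the progesterone libraries, 48.8 and 55.8 CPM in those with vehicle, and 66.7 and 53.9 CPM in the transgenic ones. All 3 groups of E2f1 overlapped, and its values were -0.20 ± 0.21 for vehicle minus transgenic (-0.35 without transgenic 2) and 0.10 ± 0.21 for progesterone minus vehicle, with -0.13 without progesterone 1. In edgeR no adjusted p of these 3 genes was under 0.81.

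**Figure D4:**
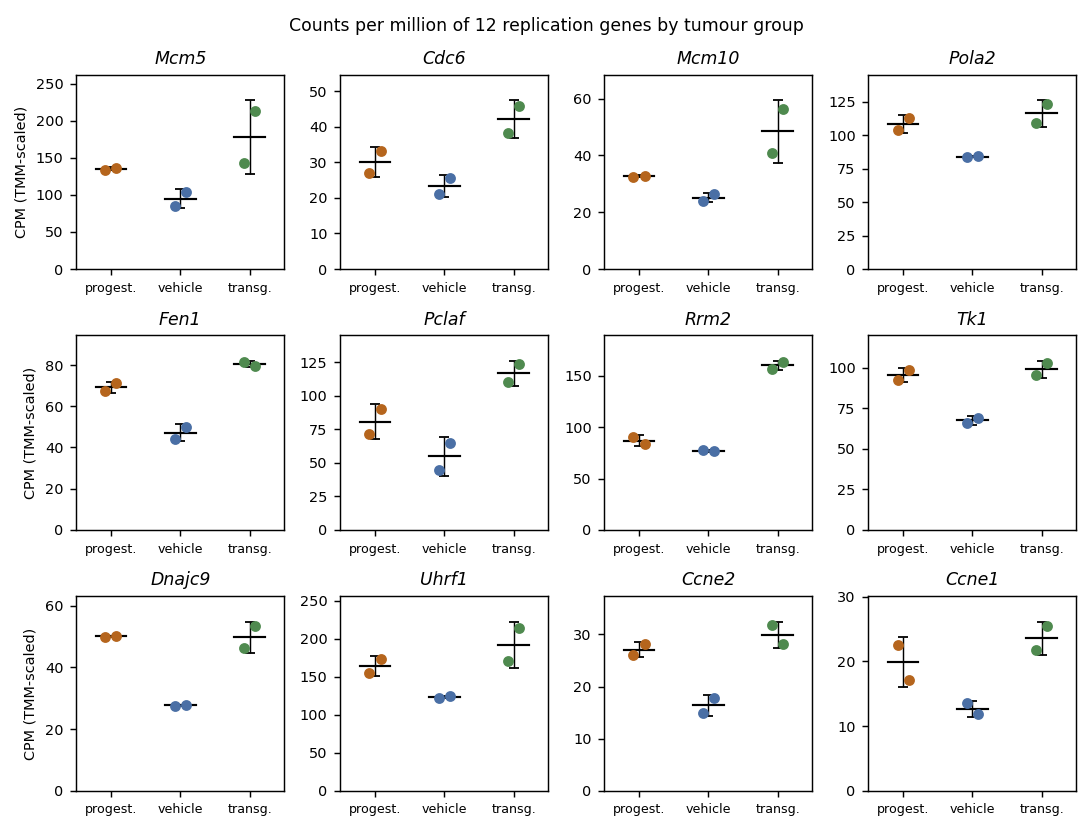
TMM-scaled CPM (y axes, from 0) of 12 replication genes in progesterone, vehicle and transgenic tumours (x axes), where points are the 2 libraries of a group, wide bars the mean and whiskers the SD. The genes were picked for display, and vehicle libraries are the lowest in all 12 panels. Over the 48 members this held for 41, and none of the 7 exceptions is shown. Among the 12 shown, Rrm2 is the panel in which progesterone (90.6 and 83.3 CPM) stays near vehicle (77.7 and 76.5 CPM) and far from transgenic (157 and 164 CPM).

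Subunits of 1 complex were compared per length, as TPM, counts scaled to merged exon length and then to library size. In the Mcm2 to Mcm7 ring, whose subunits are used in equal number, mean levels over 6 libraries ran from 64.4 TPM (Mcm2) to 165 TPM (Mcm6), a 2.56-fold range. Vehicle minus transgenic log2 fold changes within the ring ran from -0.91 (Mcm5) to -0.21 (Mcm6). Mcm6 had 155 and 201 TPM in the progesterone libraries, 138 and 153 TPM in those with vehicle, and 172 and 170.4 TPM in the transgenic ones, against Mcm5 with 116 and 131 TPM in the progesterone libraries, 75.5 and 90.2 TPM in those with vehicle, and 123 and 196 TPM in the transgenic ones. The ratio of Mcm6 to Mcm5, chosen after the values were seen, was 1.34 and 1.53 with progesterone, 1.82 and 1.69 with vehicle, and 1.40 and 0.871 in transgenic tumours. Vehicle ratios were the highest and transgenic 2 was the library in which Mcm5 exceeded Mcm6.

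GINS ran from 21.95 TPM (Gins3) to 98.3 TPM (Gins4), a 4.48-fold range, and its subunits differed in vehicle minus transgenic from -0.90 (Gins3) to -0.30 (Gins4). The clamp loader RFC ran from 25.1 TPM (Rfc3) to 57.4 TPM (Rfc4), with vehicle minus transgenic values of -0.54 (Rfc5) to -0.25 (Rfc1), the narrowest span of the complexes with more than 2 subunits. RPA ran from 47.0 TPM (Rpa2) to 111 TPM (Rpa3), and vehicle minus transgenic from -0.70 (Rpa2) to -0.19 (Rpa3). In polymerase alpha-primase levels ran from 23.3 TPM (Pola1) to 44.4 TPM (Pola2). Ribonucleotide reductase had 44.5 TPM of Rrm1 and 139 TPM of Rrm2.

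**Figure D5:**
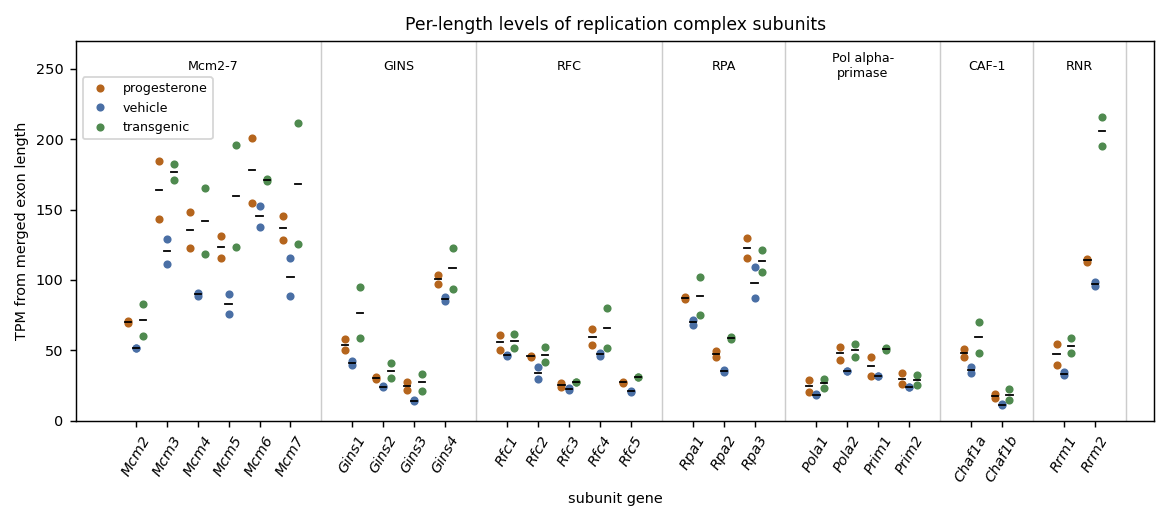
Per-length level (TPM, y axis from 0) of the subunit genes (x axis) of 7 replication complexes or enzymes, where points are libraries of the progesterone, vehicle and transgenic groups and short bars group means. In GINS, Gins4 (mean 98.3 TPM) is 4.48-fold above Gins3 (21.95 TPM), and Rrm2 is the gene whose transgenic libraries stand farthest from both other groups.

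Other genes of the same pathway, from a list without members, had like values. Of 43 tested other replication genes, 39 were lower in vehicle than in transgenic tumours by log2 fold change (median -0.54, and -0.40 without transgenic 2) and 37 higher in progesterone than in vehicle tumours (median 0.31), with 0 called by edgeR in either. Clspn, an adaptor of the replication checkpoint, had 43.4 and 40.1 CPM in the progesterone libraries, 27.1 and 30.4 CPM in those with vehicle, and 45.04 and 56.6 CPM in the transgenic ones. Dbf4, the activator of the kinase Cdc7, had 50.8 and 67.8 CPM in progesterone tumours, 41.96 and 44.04 CPM in vehicle tumours and 71.5 and 78.05 CPM in transgenic tumours. Exo1, a nuclease of mismatch repair and end resection, had 24.3 and 29 CPM in the progesterone libraries, 17.6 and 20.6 CPM in those with vehicle, and 34.1 and 35.5 CPM in the transgenic ones. All 3 had their lowest levels in the vehicle libraries, with vehicle minus transgenic values of -0.82, -0.80 and -0.87. Cdca7, which works with the remodeller Hells, had 71.7 and 83.1 CPM in progesterone tumours, 80 and 79.9 CPM in vehicle tumours and 112 and 109 CPM in transgenic tumours. Its progesterone and vehicle libraries overlapped and both were below the transgenic ones, at -0.51 for progesterone minus transgenic.

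Mitosis and G2 genes had medians farther from 0 than the members. Of 25, 24 were lower in vehicle than in transgenic tumours by log2 fold change (median -0.84, and -0.50 without transgenic 2) and 24 higher in progesterone than in vehicle tumours (median 0.51), and edgeR called 0. The exception in each was Kif11, at 0.13 and -0.05, with only 1.91 to 7.10 CPM over the 6 libraries. The largest SE of the list was 0.63 in both comparisons. Without transgenic 2, or without vehicle 1, all 25 mitosis and G2 genes were lower in vehicle than in transgenic tumours. Their median log2 ratio of transgenic 2 over transgenic 1 was 0.49, with 23 of 25 higher, so the library that stands apart touches them too. Ccna2, the cyclin of S phase and G2, had 104 and 134 CPM in the progesterone libraries, 71.05 and 91.2 CPM in those with vehicle, and 154 and 167 CPM in the transgenic ones. Ccnb1, the mitotic cyclin B1, had 79.01 and 96.3 CPM in progesterone tumours, 55.9 and 59.1 CPM in vehicle tumours and 98.1 and 98.5 CPM in transgenic tumours. Birc5, encoding survivin of the chromosomal passenger complex, had 62.05 and 63.5 CPM in the progesterone libraries, 40.6 and 49.5 CPM in those with vehicle, and 77.2 and 88.97 CPM in the transgenic ones. In all 3 the vehicle libraries lay below the 4 others, and vehicle minus transgenic was -0.99, -0.77 and -0.88. Ube2c, which charges the ubiquitin ligase of anaphase, had 70.9 and 59.9 CPM in progesterone tumours, 41.7 and 51.5 CPM in vehicle tumours and 73.9 and 90.9 CPM in transgenic tumours, and its vehicle minus transgenic value was -0.82. The difference between this list and the members was not tested.

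The 16 tested G1 cyclins, kinases and inhibitors had medians of -0.11 for vehicle minus transgenic (-0.14 without transgenic 2, with 11 lower) and 0.17 for progesterone minus vehicle, with 13 lower and 11 higher and 0 called by edgeR. Rbl1, the E2F-regulated pocket protein p107, had 41.4 and 54.9 CPM in the progesterone libraries, 41.4 and 36.6 CPM in those with vehicle, and 56.01 and 62.8 CPM in the transgenic ones, and its vehicle minus transgenic value was -0.61. Cdkn2c, the inhibitor p18 of the cyclin D kinases, had 51.4 and 50.7 CPM in progesterone tumours, 25.8 and 41.2 CPM in vehicle tumours and 40.97 and 32.8 CPM in transgenic tumours. Its progesterone libraries were the highest and nearly equal, at 0.61 for progesterone minus vehicle. Cdkn1c, the inhibitor p57, had 0.271 and 2.23 CPM in progesterone tumours, 0.309 and 0.265 CPM in vehicle tumours and 0.445 and 0.253 CPM in transgenic tumours. Progesterone 2 alone stood above a level near the limit of detection, and the log2 fold change of Cdkn1c was 2.10 for progesterone minus vehicle. Ccnd2, the cyclin D2 gene, had 178 and 116 CPM in the progesterone libraries, 187 and 171 CPM in those with vehicle, and 194 and 192 CPM in the transgenic ones. The progesterone libraries of Ccnd2 differed widely, and all vehicle and transgenic libraries were close to each other.

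Hypoxia and glycolysis genes ran the other way. All 15 were higher in vehicle than in transgenic tumours by log2 fold change (median 0.67) and all 15 lower in progesterone than in vehicle tumours (median -0.78), with 0 called by edgeR. All 15 were also lower in transgenic 2 than in transgenic 1, with a median log2 ratio of -0.58. Without transgenic 2 the vehicle minus transgenic median was 0.36 and 14 of 15 genes were higher. Egln3, an oxygen-sensing prolyl hydroxylase induced in hypoxia, had 204 and 244 CPM in the progesterone libraries, 582 and 465 CPM in those with vehicle, and 348 and 328 CPM in the transgenic ones. Adm, the hypoxia-induced peptide adrenomedullin, had 98.6 and 96.7 CPM in progesterone tumours, 286 and 193 CPM in vehicle tumours and 126 and 63.9 CPM in transgenic tumours. In both genes the vehicle libraries were above all 4 others, with progesterone minus vehicle values of -1.23 and -1.30. Ero1l, an oxidase of protein folding induced in hypoxia, had 209 and 245 CPM in the progesterone libraries, 643 and 449.5 CPM in those with vehicle, and 278 and 184 CPM in the transgenic ones. Hk2, the hexokinase that starts glycolysis, had 197 and 189 CPM in progesterone tumours, 408 and 289.5 CPM in vehicle tumours and 225 and 180 CPM in transgenic tumours. These followed the same order, with progesterone minus vehicle values of -1.27 and -0.85. Whether these genes have a part in the values of the replication genes was not tested.

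Marker lists of host cells were read beside the members. T cell markers were rare: 7 of 9 passed the filter, and the summed level of all 9 was 6.72 and 5.59 CPM with progesterone, 2.02 and 1.59 CPM with vehicle, and 3.11 and 13.2 CPM in transgenic tumours. The 7 past the filter were all lower in vehicle than in transgenic tumours by log2 fold change (median -2.36), 6 of them without transgenic 2 (median -0.88), and Cd4, Cd8a and Cd2 were at 0 counts in library vehicle 2. Macrophage markers, 9 of 9 past the filter, summed to 1119 and 1278 CPM with progesterone, 707 and 723 CPM with vehicle, and 457 and 1117 CPM in transgenic tumours. Their sum was thus lowest in transgenic 1 and next lowest in the vehicle libraries. Mast cell markers, 6 of 6 past the filter, summed to 80.4 and 183 CPM with progesterone, 25.6 and 28.7 CPM with vehicle, and 16.6 and 31.1 CPM in transgenic tumours. The vehicle and transgenic sums were mostly Kit, with 15.03 and 15.7 CPM with vehicle and 12.6 and 17.4 CPM in transgenic tumours. Kit was at -0.37 in progesterone minus vehicle, while the other 5 mast cell markers were higher with progesterone (median of the list 3.58). Fibroblast markers, 8 of 8, summed to 4972 and 10580 CPM with progesterone, 6778 and 11470 CPM with vehicle, and 7612 and 2047 CPM in transgenic tumours, the lowest being transgenic 2. This sum was mostly Col3a1, and 4 of the 8 genes were higher in transgenic 2 than in transgenic 1. Neutrophil markers, 6 of 6, summed to 340.3 and 214 CPM with progesterone, 189.6 and 271 CPM with vehicle, and 270.3 and 62.4 CPM in transgenic tumours. Much of the progesterone sum was Mmp9, with 182 and 104 CPM there, 20.1 and 97.5 CPM with vehicle, and 39.8 and 12.9 CPM in transgenic tumours. By log2 fold change, 4 of the 6 neutrophil markers were lower in progesterone than in vehicle tumours and 2 higher (median -0.30). Endothelial markers, 7 of 7, summed to 102 and 235 CPM with progesterone, 236 and 232 CPM with vehicle, and 226 and 276.5 CPM in transgenic tumours, while skeletal muscle markers, 3 of 5 past the filter, reached at most 15.5 CPM. Of the LLC markers 5 of 6 passed, and the sum over all 6, between 4360 and 5002 CPM in the 6 libraries, was mostly Vim, while the keratin genes differed between the transgenic libraries as given above. The part of the cell makeup in the members' values was not tested.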

How the data were processed

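Messenger RNA of 6 tumours (2 libraries per group) was measured with a directional kit, per the labels' protocols. The authors deposited raw read counts per gene. Per the submitters' processing notes, HISAT2, HTSeq and DESeq were used with GRCm38.p6, their versions, settings and use of strand being not given in the sources used here. Exons of 14 members overlap a gene on the opposite strand, and those of Pole2 overlap Gm49384 on the same strand, so their counts are uncertain. No count column was unused (0).

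Counts were analysed in R 4.3.3 with edgeR 4.0.16: filterByExpr (13632 genes kept), TMM, and 1 quasi-likelihood model of all 6 libraries with 3 residual degrees of freedom. The code was required to recover changes put into simulated counts only at a spread smaller than that of these data. That check does not show how many changes the test finds at the observed spread. Adjusted p-values are Benjamini-Hochberg over all genes kept, and the threshold was 0.05. SEs derive from the F statistic. DESeq2 1.42.0, limma-voom (limma 3.58.1), other scalings, no filter, only the groups compared, a replicate block and leaving out each library were alternatives. Coordinates are GENCODE's (GRCm38, 1-based), and promoter letters are RefSeq's. TPM used merged exon lengths.

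Members and lists were chosen with earlier results of these data known. Named members are those of each role ranked by the 3-group F test down to its middle rank, 26 of 48, with the other 22 given by range, and up to 4 genes per pathway list were named by the same test. Members singled out beyond this rule are marked where they appear.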

Additional observations from a re-analysis of the deposited data

How the results depend on the processing

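Under edgeR with other scalings, with only the groups compared, with the replicate block and without each library in turn, and under limma-voom, 0 members were called in each comparison, as in the reported analysis. DESeq2 called 7 members in vehicle minus transgenic, 1 in progesterone minus vehicle, 1 in progesterone minus transgenic, 6 in vehicle against the mean of the other groups and 6 among the 3 groups. With no filter on low counts edgeR called 1 member in vehicle minus transgenic (0.0622% of all genes) and 2 among the 3 groups (0.726%); the cause was not tested. Leaving out 1 library at a time gave median log2 fold changes of -0.69 to -0.43 in vehicle minus transgenic (lowest without transgenic 1, highest without transgenic 2), 0.27 to 0.41 in progesterone minus vehicle, -0.28 to -0.07 in progesterone minus transgenic (highest without transgenic 2) and -0.55 to -0.39 in vehicle against the mean of the others.

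In progesterone minus transgenic, 7 values of the 26 members named by rule turned their sign. Without transgenic 2 Mcm4 was at 0.11, Gins3 at 0.14, Pole at 0.07, Lig1 at 0.07 and Tk1 at 0.00, without progesterone 1 Pola1 was at 0.03, and without transgenic 1 Dnajc9 was at -0.09. Over all libraries left out, the lowest values were -0.28 for Mcm4, -0.43 for Gins3, -0.46 for Pole, -0.40 for Lig1, -0.11 for Tk1 and -0.32 for Pola1, and the highest of Dnajc9 was 0.11; the cause was not tested. Members not named by rule turned their sign in this comparison too. Without transgenic 2 these were Mcm2, Mcm6, Mcm7, Cdc45, Gins4, Rfc1, Rfc2, Rfc4, Rpa1 and Chaf1b. Among those that turned without another library were Prim2, Pold1, Pold2 and E2f1. Over all 48 members, the signs that turned in the other 2 pairwise comparisons were those of Pold1 in vehicle minus transgenic (0.07 without transgenic 2) and, in progesterone minus vehicle, of Dut (0.01 without progesterone 2 and 0.03 with total counts only), E2f1 (-0.13 without progesterone 1), Pole2 (-0.11 without vehicle 1) and Pold2 (-0.07 without vehicle 1 and -0.27 without progesterone 1).

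With the replicate number as a block, the medians were -0.57, 0.36, -0.20 and -0.44 and the calls 0. Over all genes tested, same-numbered libraries did not deviate together (correlations of -0.125 for progesterone and vehicle, -0.174 for progesterone and transgenic, and 0.0804 for vehicle and transgenic), so the numbers were not taken to pair them. Among the 48 members, library 2 was above library 1 for 37 in transgenic, 41 in vehicle and 31 in progesterone tumours. Over all genes that share was 51.6% in transgenic tumours, and it is not given here for the other groups. With 2 libraries per group the spread of a single gene is poorly known. Whether depth limits the tests was not tested.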
